A study of Mus musculus with 4 samples.

Results

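Chemokines and their receptors, the genes examined here, were taken from the array's own gene names: every name made of Ccl, Cxcl, Ccr or Cxcr and a digit, plus Xcl1, Xcr1, Cx3cl1 and Cx3cr1. This gave 51 genes, 35 ligands and 16 receptors, read by 67 of the 41174 probes and drawn from 27962 gene names in all. Genes with more than 1 probe are represented by the brightest. RNA came from livers and spleens of C57BL/6J male mice that were 13 weeks of age. The NP group ate, for 4 weeks, a CLEA basic purified diet with 1.2% nucleoprotein (S-nuclegen) mixed in, which held 0.5% nucleic acids, and the low-NP group ate the purified diet alone, with 0.03% nucleic acids. RNA was pooled by diet and tissue before the dyes were added, from a number of mice that the labels leave out.

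Chemokines are small secreted proteins that direct the movement of white blood cells, and their receptors are membrane proteins that signal through inhibitory G proteins. One set of them is made constantly in lymphoid organs: stromal cells of the splenic white pulp make Ccl19 and Ccl21, which place T cells and dendritic cells through Ccr7, and Cxcl13, which places B cells through Cxcr5. Others are induced in inflammation, by interferon or by NF-kappaB, and recruit neutrophils, monocytes or effector T cells into tissues such as the liver.

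Each tissue was read on 2 dual-colour Agilent arrays, array 1 carrying NP RNA in Cy5 and array 2 carrying it in Cy3. The pair was taken, as an assumption, for a technical dye swap, which leaves 1 replicate per diet and tissue and allows no test. The value after ± is the distance from each array to the mean of both. The labels number the pooled samples along with the dyes and do not settle if the arrays of a tissue held the same pools. Genes count as measured in a tissue if the probe stood well above background, in 1 channel or both, on each of its arrays. They count as called if each array gave a difference of 1.5-fold or more, both with the same sign. Ratios are log2 of NP over low NP, and levels are normalized log2 intensities, compared between pools for 1 probe and never between probes. In bulk RNA, fewer cells of a type, less RNA per cell and a differing share of another tissue's RNA cannot be told apart.

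On the arrays, 59.3% to 68.0% of probes were well above background in either channel, except on spleen array 1, where 93.3% in Cy3 and 94.8% in Cy5 were, and where negative control spots had medians of 156 (Cy3) and 307 (Cy5), compared with 62.7 and 71.9 on the other spleen array. All 4 pools carried markers of both tissues, and the low-NP pools carried more of the other tissue's markers than the NP pools did. The 10 B cell markers summed to 12.36 and 11.56 (log2 of the summed intensity, arrays 1 and 2) in NP liver, against 15.20 and 15.52 in low-NP liver, and 8 of them were called lower in NP liver. The B cell genes Cd79a and Blk and the T cell gene Trat1 were not well above background on either array in NP liver and were so on at least 1 array in low-NP liver. In spleen the 11 hepatocyte markers summed to 16.04 and 14.26 in NP spleen, against 20.60 and 20.14 in low-NP spleen, and all 11 were called lower in NP spleen. The 10 exocrine pancreas markers summed to 17.48 and 17.29 in NP liver, against 18.53 and 18.43 in low-NP liver, and to 18.60 and 17.80 in NP spleen, against 20.51 and 20.37 in low-NP spleen. Of the other lists, those called lower in NP liver were 8 of 11 T cell markers, 4 of 10 natural killer cell, 4 of 11 macrophage and monocyte, 1 of 8 dendritic cell, 1 of 8 neutrophil, 2 of 7 lymphoid stroma, 2 of 7 platelet, 10 of 10 exocrine pancreas, 0 of 7 erythroid and 0 of 11 hepatocyte markers. Both lymphoid stroma markers called, Ccl19 and Cxcl13, and both platelet markers called, Cxcl4 and Cxcl7, are themselves chemokines of the set described here. In NP spleen all 10 pancreas markers and 1 macrophage marker were called lower, 3 of 10 erythroid markers were called higher, and no marker of the other lists was called. The part of these differences in the chemokine results was not tested.

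**Figure D1:**
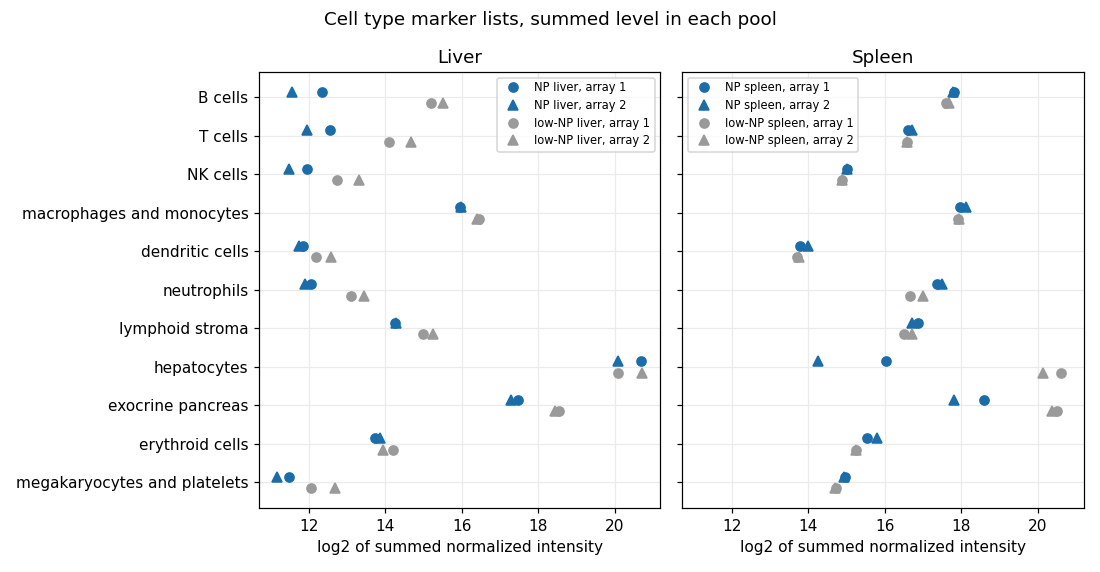
Summed level of each cell type marker list (log2 of the summed normalized intensity, horizontal axis) in the NP pools (blue) and low-NP pools (grey) of liver (left) and spleen (right), with a circle for array 1 and a triangle for array 2. B and T cell lists lie lower in NP liver than in low-NP liver, and the hepatocyte list lies at 16.04 and 14.26 in NP spleen, against 20.60 and 20.14 in low-NP spleen.

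In liver, 38 of the 51 members were measured, 9 of them were called lower in the NP pool and 0 were called higher. The 9 are the ligands Ccl19, Ccl5, Ccl21c, Cxcl13, Cxcl7 and Cxcl4 and the receptors Ccr6, Ccr7 and Cxcr3. They make 23.7% of the measured members, where 3.63% of all 17129 measured genes were called lower (621 genes) and 0.0701% were called higher (12 genes). All 9 were among the 14 members at least 4-fold higher in NP spleen than in NP liver. Of all 1235 such genes measured in both tissues, 571 (46.2%) were called lower in NP liver. That class shares the NP liver pool with the ratio. The members had a median ratio of -0.43, with array medians of -0.14 and -0.66, against 0.00 for all genes, and ran from -2.99 to 0.46. Without background correction 18 members were called lower, where 7.78% of all genes were. With the scanner software's processed signals it was 19 lower and 1 higher, where 10.2% of all genes were lower, and on array 2 alone 21 lower, where 11.2% were. The same 9 were among those called in each of these 3 cases. With the processed signals the calls over all genes came to 1750 lower and 307 higher. No member was past 1.5-fold in opposite directions on the 2 arrays, as 41 of all genes were.

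**Figure D2:**
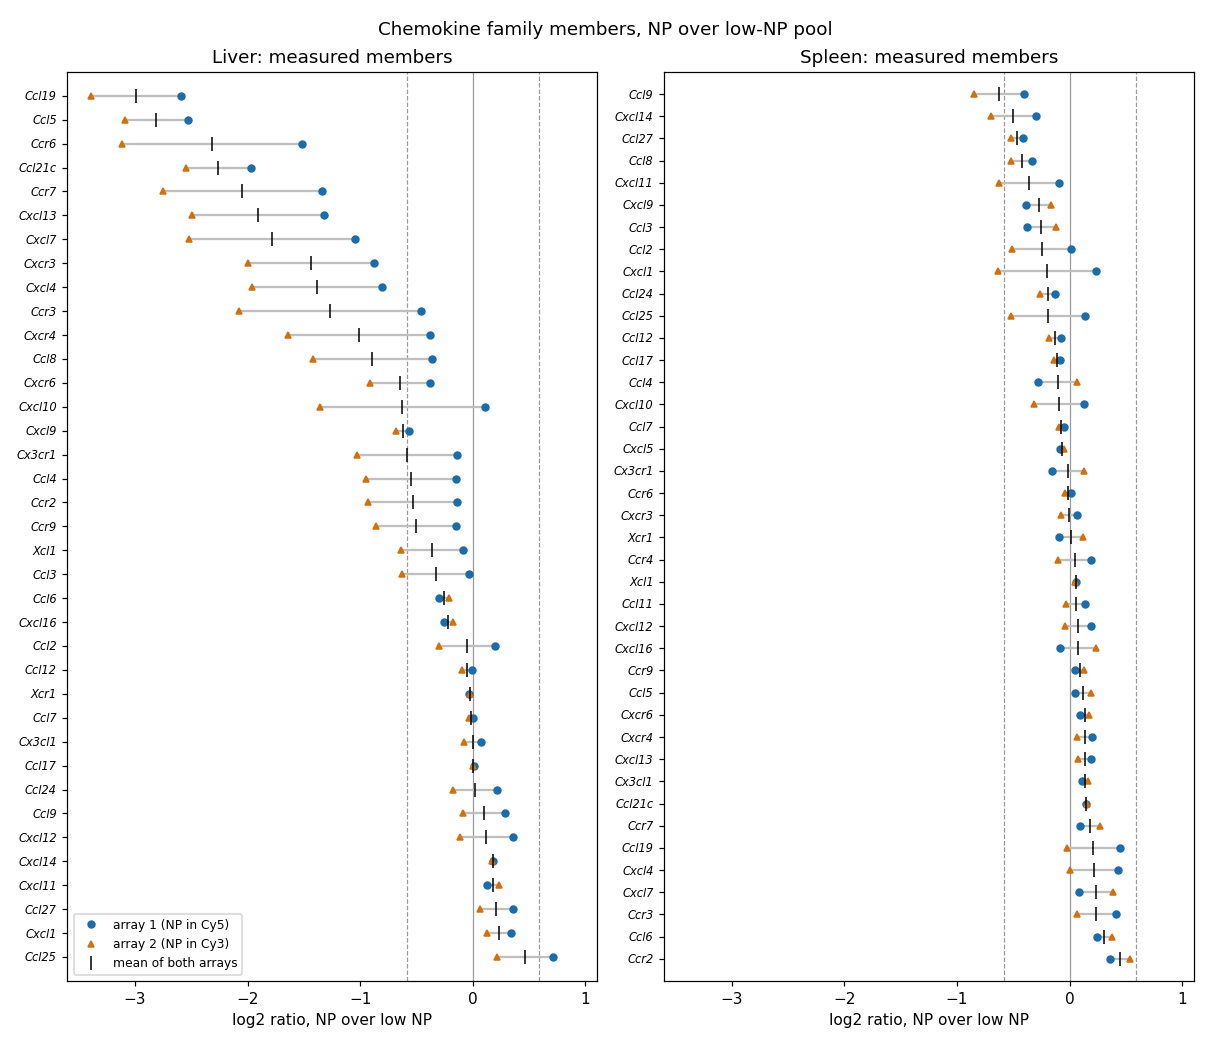
Log2 ratio of NP over low NP (horizontal axis) for the measured members reported here in liver (left) and spleen (right), with array 1 as a circle, array 2 as a triangle and their mean as a bar; dashed lines mark 1.5-fold. In liver 9 members lie beyond the left line on both arrays, and in spleen no member lies beyond a line on both arrays.

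Ccl19, a ligand of Ccr7 made by T zone stroma, had the lowest mean ratio in liver under loess. Its level was 11.32 and 10.94 in NP liver on arrays 1 and 2, against 13.90 and 14.33 in low-NP liver. In spleen it stood at 16.46 and 16.27 in the NP pool, against 16.02 and 16.29 in the low-NP pool. NP liver was thus the lowest pool on both arrays and the spleen pools overlapped each other. The ratio was -2.59 and -3.39 in liver (mean -2.99 ± 0.40), which is 7.94-fold lower in NP liver, and 0.44 and -0.02 in spleen. A second Ccl19 probe had a liver ratio of -2.64 and was called lower as well. With the processed signals Ccr7 and Ccr6 had liver means of -3.82 and -3.73, below the -3.11 of Ccl19.

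Ccl21c, one of several near-identical mouse copies of the other Ccr7 ligand, is read by a probe that may not tell these copies apart. It had levels of 10.75 and 10.25 in NP liver, against 12.72 and 12.80 in low-NP liver, and 14.99 and 14.96 in NP spleen, against 14.85 and 14.81 in low-NP spleen. That made it 4.79-fold lower in NP liver (-2.26 ± 0.29), with a spleen ratio of 0.15 ± 0.01 whose sign turned with median centring. Ccr7, the receptor of both ligands on naive T cells and mature dendritic cells, had levels of 8.90 and 7.94 in NP liver, against 10.24 and 10.69 in low-NP liver. In spleen its levels were 12.47 and 12.70 in the NP pool, against 12.38 and 12.43 in the low-NP pool. The liver ratio of Ccr7 was -1.34 on array 1 and -2.75 on array 2, a wider gap between arrays than either ligand had. All 3 genes of this ligand and receptor group were therefore called lower in NP liver, where 3.63% of all measured genes were. All 3 were at least 4-fold higher in NP spleen than in NP liver, where 46.2% of all such genes were called lower.

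Cxcl13, the ligand that draws B cells into follicles, had levels of 9.54 and 8.91 in NP liver, against 10.86 and 11.41 in low-NP liver. In NP spleen it stood at 13.85 and 13.73, against 13.66 and 13.65 in low-NP spleen. It was 3.76-fold lower in NP liver (-1.91 ± 0.59). Its receptor Cxcr5, listed on the array under the older name Blr1 and so outside the naming rule, was called lower in NP liver too, at -2.89 ± 0.83.

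Ccr6, the receptor of Ccl20 on B cells and some T cells and dendritic cells, had levels of 9.03 and 8.05 in NP liver, against 10.55 and 11.16 in low-NP liver. The spleen levels were 12.75 and 12.86 in the NP pool, against 12.74 and 12.90 in the low-NP pool. The liver ratio was -1.52 on array 1 and -3.12 on array 2 (mean -2.32 ± 0.80), one of the widest gaps between arrays in the set. Its ligand Ccl20 was not measured in either tissue.

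Ccl5, a product of T and natural killer cells that attracts effector cells through receptors such as Ccr1 and Ccr3, had levels of 10.87 and 10.60 in NP liver, against 13.40 and 13.69 in low-NP liver. It reached 15.68 and 15.87 in NP spleen, against 15.63 and 15.68 in low-NP spleen. It was 7.01-fold lower in NP liver (-2.81 ± 0.28), and its second probe was also called lower, at -2.49. Its receptor Ccr1 was not measured. Ccr3, the eotaxin receptor of eosinophils, had levels of 8.37 and 7.76 in NP liver, against 8.84 and 9.84 in low-NP liver. Its ratio of -0.46 on array 1 missed 1.5-fold and that of -2.08 on array 2 passed it, so Ccr3 was not called, and its other probe was not measured in liver.

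Cxcr3, the receptor of activated T cells for the interferon-induced ligands Cxcl9, Cxcl10 and Cxcl11, had levels of 9.25 and 8.81 in NP liver, against 10.13 and 10.80 in low-NP liver. It was 2.71-fold lower in NP liver (-1.44 ± 0.56) and had the same level of 12.31 on both arrays in NP spleen, against 12.24 and 12.39 in low-NP spleen. None of its 3 ligands was called in either tissue. Cxcl9 had liver ratios of -0.57 and -0.68, just under and just over 1.5-fold. Cxcl10 had 0.10 on array 1 and -1.36 on array 2, so its direction differed between the arrays. Cxcl11 had 0.13 and 0.23, toward the NP pool on both.

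Cxcl7 and Cxcl4, which the reference names Ppbp and Pf4, are stored in platelet granules and made by megakaryocytes. Cxcl7 had levels of 9.0 and 8.37 in NP liver, against 10.04 and 10.89 in low-NP liver, and 13.41 and 13.63 in NP spleen, against 13.33 and 13.24 in low-NP spleen. Cxcl4 had levels of 9.81 and 9.37 in NP liver, against 10.62 and 11.33 in low-NP liver, and 13.95 and 13.61 in NP spleen, against 13.52 and 13.61 in low-NP spleen. They were 3.44-fold and 2.61-fold lower in NP liver, at -1.78 ± 0.74 and -1.39 ± 0.58. With median centring in place of loess, Cxcl4 was no longer called and the other 8 were. With a call at 2-fold, Cxcl4 and Cxcr3 were no longer called.

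**Figure D3:**
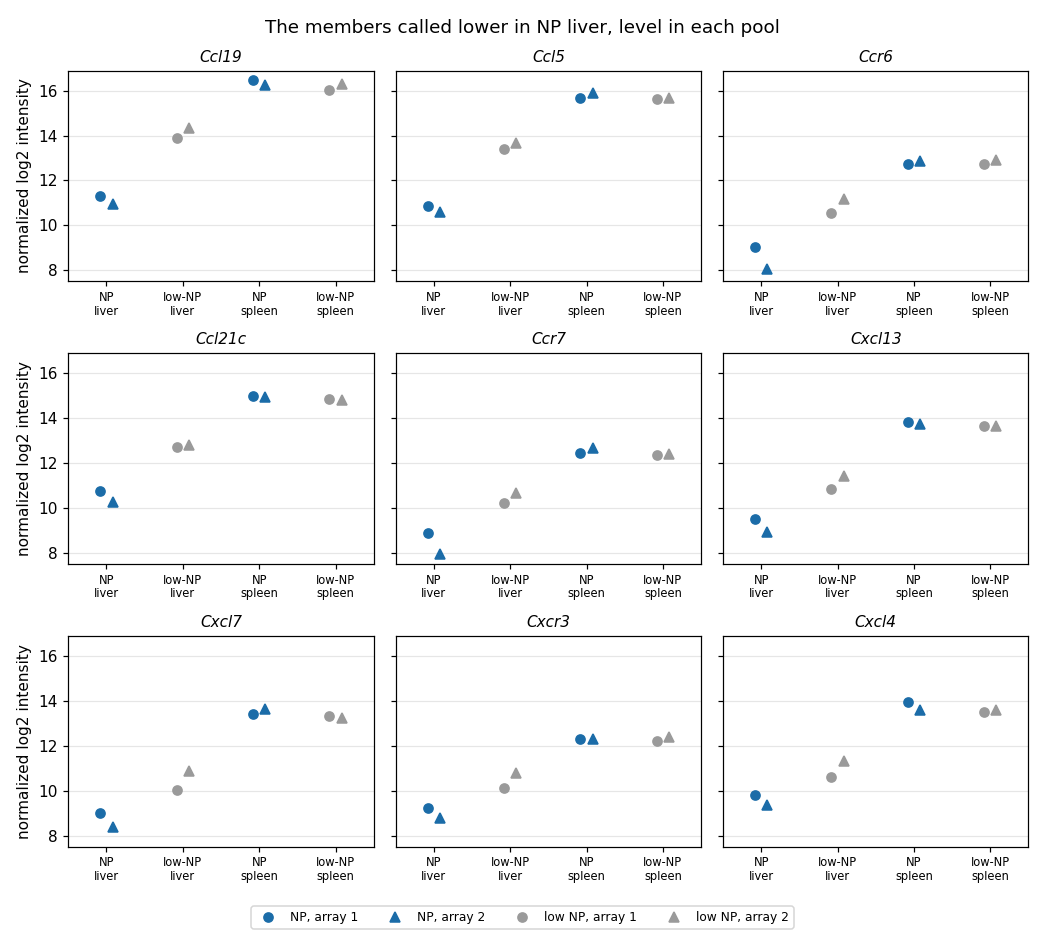
Normalized log2 intensity (vertical axis) of the 9 members called lower in NP liver, each in its own panel, in the NP liver, low-NP liver, NP spleen and low-NP spleen pools, with a circle for array 1 and a triangle for array 2. In every panel the NP liver points lie below the low-NP liver points, and both spleen pools lie above both liver pools.

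The remaining 29 measured members were not called in liver, and their mean ratios ran from -1.27 (Ccr3) to 0.46 (Ccl25). The lowest after Ccr3 were Cxcr4, Ccl8, Cxcr6 and Cxcl10. Cxcr4, which holds lymphocytes and blood cell progenitors near its ligand Cxcl12, had liver ratios of -0.38 and -1.65, and its NP liver signal was well above background on 1 of 2 arrays. A second Cxcr4 probe had a mean of -0.53. Cxcl12 itself had levels of 14.68 and 14.56 in NP liver, against 14.33 and 14.68 in low-NP liver, which overlap. Ccl8, a ligand of Ccr8 in mice, had ratios of -0.37 and -1.42. Cxcr6, found on natural killer T cells that patrol liver sinusoids, had ratios of -0.38 and -0.91, and its ligand Cxcl16 had -0.26 and -0.17. For Cxcr4, Ccl8 and Cxcr6 both arrays were below 0, but only array 2 passed 1.5-fold.

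Toward the NP pool, Ccl25 came first in liver under loess, with ratios of 0.71 and 0.22. With the processed signals Cxcl14 and Cxcl11 had liver means of 0.82 and 0.66, above the 0.62 of Ccl25. Ccl25 attracts T cells to the small intestine and thymus through Ccr9, and its levels were 11.59 and 11.51 in NP liver, against 10.89 and 11.30 in low-NP liver. Its other 2 probes had means of 0.21 and -0.04. Both were dimmer than the probe used, and the background correction draws the ratios of dim probes toward 0. Why the probes of Ccl25 differed was not tested. Cxcl1, a neutrophil attractant, had levels of 10.80 and 10.59 in NP liver, against 10.46 and 10.47 in low-NP liver. Ccl27 (Ccl27a in the reference, a member of another group of near-identical mouse copies) had ratios of 0.35 and 0.06, and Cxcl14 had 0.18 and 0.17. None of Ccl25, Cxcl1, Ccl27 and Cxcl14 passed 1.5-fold on both arrays.

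None of the members in this paragraph was called in liver. Ccl2, the main attractant of inflammatory monocytes, had 0.20 and -0.30, and its receptor Ccr2 had -0.14 and -0.93. Ccl3 had -0.03 and -0.63, and Ccl4 had -0.15 and -0.95. Ccl6 had -0.30 and -0.21, and Ccl9 had 0.29 and -0.09. Among ligands paired with their own receptor, Xcl1 had -0.09 and -0.63 while its dendritic cell receptor Xcr1 had -0.03 and -0.02, and Cx3cl1 had 0.07 and -0.08 while Cx3cr1 had -0.14 and -1.03. A second Xcr1 probe had a mean of -0.54, so the probes of that gene disagreed. Cx3cr1 was well above background in NP liver on 1 of 2 arrays, and its second probe was not measured in liver. Ccl12, Ccl17, Ccl7 and Ccl24 had means between -0.05 and 0.02.

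By class, 6 of 27 measured ligands and 3 of 11 measured receptors were called lower in NP liver. Ligands had a median ratio of -0.22 and a range of -2.99 to 0.46, and receptors had a median of -0.65 and a range of -2.32 to -0.03. No receptor had a mean above 0 in liver. Of all 38 members, 29 (76.3%) had a mean below 0 and 26 (68.4%) were below 0 on both arrays, where 49.8% and 30.7% of all measured genes were.

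In spleen, 41 members were measured and 0 were called in either direction. Among all 18574 genes measured in spleen, 6.31% were called lower (1172 genes) and 0.0431% higher (8 genes). Of these 1172 genes, 1067 were among the 1449 at least 4-fold higher in NP liver than in NP spleen, a class with 2 members. The members' median ratio was -0.0056, with array medians of 0.05 and -0.03, against -0.02 for all genes, and the range was -0.63 to 0.45. Ccl9 had the lowest mean, with levels of 10.69 and 10.48 in NP spleen, against 11.10 and 11.33 in low-NP spleen. It was lower in the NP pool on both arrays (-0.41 and -0.85), with 1.5-fold passed on array 2 alone. Cxcl14 (-0.30 and -0.70), Ccl27 (-0.41 and -0.52), Ccl8 (-0.33 and -0.52) and Cxcl11 (-0.10 and -0.63) followed. With the processed signals Cxcl14 and Cxcl11 had means of -1.69 and -1.47, below the -0.50 of Ccl9. Ccr2, the receptor of monocytes for Ccl2, was highest, with levels of 10.51 and 10.57 in NP spleen, against 10.15 and 10.03 in low-NP spleen. Next came Ccl6 (0.25 and 0.37), Ccr3 (0.41 and 0.07), Cxcl7 (0.08 and 0.39) and Cxcl4 (0.43 and 0.01), although with median centring Cxcl7 and Cxcl4 had means of -0.040 and -0.057. The 12 measured receptors lay between -0.02 and 0.45, and the 29 ligands between -0.63 and 0.31.

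On array 2 alone, Ccl9, Cxcl1, Cxcl11 and Cxcl14 passed 1.5-fold toward low-NP spleen, and on array 1 alone no member did. Over all genes, 9.05% passed in that direction on array 2 alone, so these 4 of 41 members are close to the share of all genes. Cxcl11 and Cxcl14 were well above background in NP spleen on 1 of 2 arrays, which was spleen array 1, the array with the bright negative controls.

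Between the tissues, 38 members were measured in both. In the NP pools 20 of them were at least 2-fold higher in spleen, where 18.9% of all 16623 genes measured in both were, and 6 were at least 2-fold higher in liver, where 18.2% were. In the low-NP pools the counts were 16 and 3, where 13.4% and 12.2% of all genes passed. The 6 members higher in NP liver were Cxcl1 (4.48-fold), Ccl9 (4.31-fold), Ccl27 (3.95-fold), Ccl25 (2.90-fold), Cxcl14 and Cxcl11. For Cxcl14 and Cxcl11 no fold is given, since NP spleen was well above background on 1 of 2 arrays, and with both channels required on both arrays the count was 4. The largest differences toward NP spleen were those of Ccl19 (37.7-fold), Ccl5 (32.9-fold), Cxcl7 (28.5-fold), Cxcl13 (23.7-fold), Ccl21c (22.3-fold), Ccr6 (19.3-fold), Cxcl4 (18.3-fold), Ccr7 (17.9-fold), Ccr3 (11.3-fold) and Cxcr3 (9.71-fold). Liver and spleen were never on 1 array, and each fold is taken between the means of a pool's 2 channels.

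Of the 38 members, 34 had a smaller difference between spleen and liver in the low-NP pools than in the NP pools. This was not counted over all genes. The members' median size of the difference was 1.66 in the NP pools and 1.06 in the low-NP pools. Over all genes it was 0.70 and 0.52, so it was smaller in the low-NP pools there as well. Ccl19 differed by 5.24 in the NP pools and by 2.03 in the low-NP pools, and Ccl5 by 5.04 and 2.11. On the liver side, Cxcl1 differed by -2.16 in the NP pools and -1.73 in the low-NP pools, and Ccl9 by -2.11 and -1.38. Cxcl12 differed by 0.20 and 0.24, one of the members with a like level in all 4 pools.

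**Figure D4:**
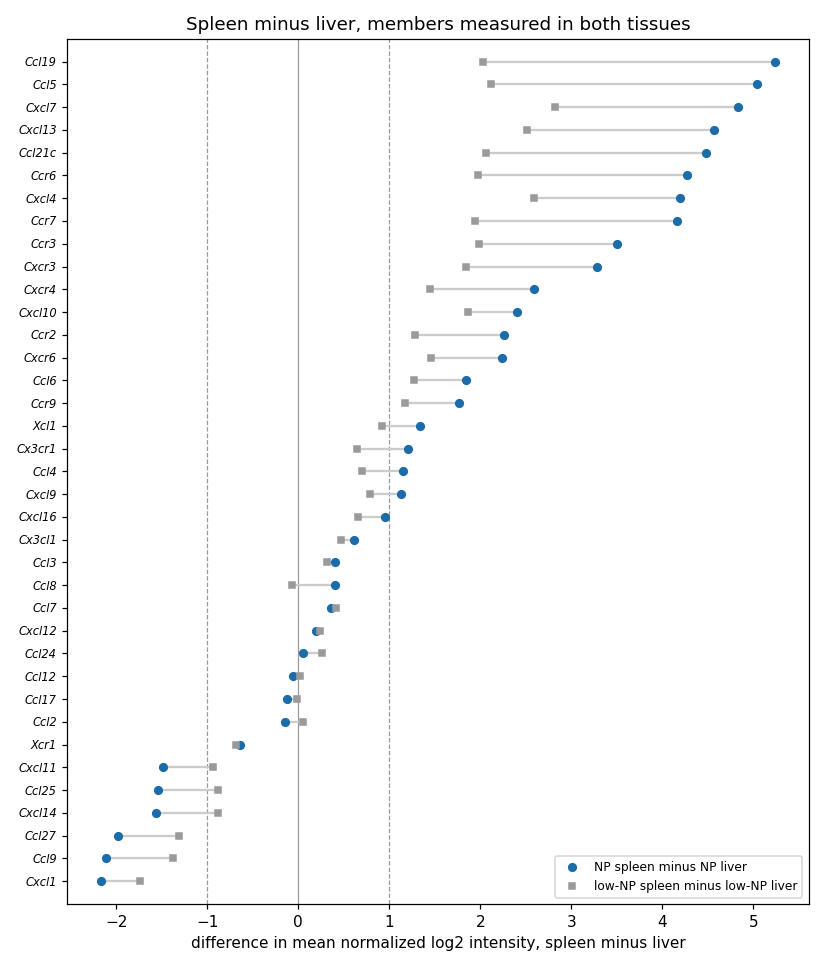
Difference in mean normalized log2 intensity between spleen and liver (horizontal axis, positive toward spleen) for the members reported here that were measured in both tissues, in the NP pools (blue circles) and in the low-NP pools (grey squares); dashed lines mark 2-fold. In the NP pools 20 members lie right of the right line and 6 left of the left line, and in the low-NP pools 16 and 3 do.

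The liver ratio and the tissue difference share the NP liver pool, so their values are set side by side only. Ccl19 had a liver ratio of -2.99 and a tissue difference of 5.24, Ccl5 -2.81 and 5.04, Ccr6 -2.32 and 4.27, and Cxcr3 -1.44 and 3.28. Cxcl16 had -0.22 and 0.95, Ccl24 0.02 and 0.05, and Ccl25 0.46 and -1.54. Other members left this order, such as Cxcl7 with -1.78 and 4.83, Ccl8 with -0.89 and 0.40, and Cxcl1 with 0.23 and -2.16. On the linear scale, the excess of low-NP liver over NP liver was taken as a share of the excess of NP spleen over NP liver, for genes 4-fold or more higher in NP spleen. That share ran from 8.85% (Cxcl7) to 21.7% (Ccr6) over the 14 members of this kind, with a median of 16.5%. Over all 1235 such genes the median was 14.3%, with quartiles of 12.1% and 17.3%. When the 16 members at least 2-fold higher in NP spleen than in low-NP liver were left out, 22 remained, 0 of them were called and their median ratio was -0.022. The same removal over all genes left 14622, of which 52 (0.356%) were called lower, and it shares the low-NP liver pool with the ratio.

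A further 10 members were measured in neither tissue: Ccl1, Ccl20, Ccl22, Ccl28, Ccr1, Ccr10, Ccr1l1, Ccr8, Cxcl15 and Cxcl2. Ccl11, Ccr4 and Cxcl5 were measured in spleen only. Ccl22, a ligand of Ccr4, stood out among them, since its liver ratio was -0.02 on array 1 and -2.55 on array 2, where low-NP liver alone was well above background.

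Genes that act with the family were counted from lists. Over all genes measured in liver, 3.63% were called lower and 0.0701% higher. Of 11 other chemokines, atypical receptors and receptors that the array gives older names, 3 were called lower in NP liver: Cxcr5, Ackr3 (listed as Cmkor1, a scavenger of Cxcl12) at -1.33 ± 0.63, and Cklf at -1.07 ± 0.48. Of 22 G protein signalling genes 5 were called lower, among them Rgs10 (-1.85 ± 0.41) and Rgs2 (-1.56 ± 0.30), which shorten G protein signals, and Gng2 (-1.48 ± 0.42), a G protein gamma subunit. Of 20 genes of the migration machinery 7 were called lower, among them Coro1a (-3.29 ± 0.24), which binds actin in leukocytes, Arhgdib (-2.23 ± 0.20) and Vav1 (-1.17 ± 0.24), a signalling protein of blood cells. Of 16 homing genes 8 were called lower, among them Itgb7 (-2.62 ± 0.39), Vcam1 (-2.32 ± 0.20), an adhesion molecule that binds integrins, and Itga4 (-1.34 ± 0.63), an integrin subunit. Of 16 genes of lymphotoxin and NF-kappaB signalling 4 were called lower: Ltb (-3.52 ± 0.29), a lymphotoxin subunit, Tnfrsf13c (-3.32 ± 1.15), the BAFF receptor of B cells, Relb (-1.63 ± 0.32) and Nfkb2 (-0.96 ± 0.20). The medians of these 5 lists in liver were -0.16, -0.58, -0.54, -0.86 and -0.54, against 0.00 for all genes, and no gene in them was called higher.

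In spleen, 1 gene of these lists was called: Rgs16, a regulator of G protein signals, at -2.51 ± 0.18 in the spleen and -0.10 ± 0.25 in the liver. Over all genes measured in spleen, 6.31% were called lower. The other 4 lists had 0 called genes in spleen, and the medians of all 5 lay between 0.08 and 0.15.

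The genes with profiles most like that of Ccl19 over the 8 array channels, out of 16622 compared, were S100a4 (Pearson r = 0.9987), Dusp2 (0.9987), Cd52 (0.9983), Igh-VJ558 (0.9982) and Blnk (0.9982). The channels come from 4 pools and share arrays, so the r is a description. The ratios given next come from the same channels by which the genes were chosen, so they are no separate result. The liver ratios of these genes were -3.40, -3.24, -2.98, -3.96 and -2.56, and their spleen ratios lay between 0.06 and 0.37. None of them is a chemokine or a chemokine receptor.

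Promoters were looked up for the members, from 250 bases before to 50 after each start site in RefSeq (GRCm38.p6). A match was found for 38 of the 51. Ccl5, Ccr7 and Ccl21c, called lower in NP liver, have no entry. The TATA box TATAAA and the 10-base NF-kappaB consensus were searched on both strands. The consensus nearly reads the same on both strands, so overlapping matches of 1 site count as several. The promoters of 4 of the 6 members called lower that have an entry are shown with those of Cxcl10 and Cxcl1, inducible members that were not called, to set their motifs side by side, with motifs in capitals. The windows of Cxcl4 and Cxcr3 and of the first start site of Ccr6 hold neither motif and are not printed.
Ccl19, at chr4:42756316-42756615 (minus strand), holds neither motif in its window.
Ccl19: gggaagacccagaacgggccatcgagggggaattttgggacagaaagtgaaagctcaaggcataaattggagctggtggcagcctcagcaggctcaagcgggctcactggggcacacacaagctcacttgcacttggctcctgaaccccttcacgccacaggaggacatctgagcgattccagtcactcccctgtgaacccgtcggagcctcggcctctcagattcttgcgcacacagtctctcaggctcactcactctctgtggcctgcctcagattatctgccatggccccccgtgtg
Cxcl13, at chr5:95956689-95956988 (plus strand), holds TATAAA at -46 from the start site.
Cxcl13: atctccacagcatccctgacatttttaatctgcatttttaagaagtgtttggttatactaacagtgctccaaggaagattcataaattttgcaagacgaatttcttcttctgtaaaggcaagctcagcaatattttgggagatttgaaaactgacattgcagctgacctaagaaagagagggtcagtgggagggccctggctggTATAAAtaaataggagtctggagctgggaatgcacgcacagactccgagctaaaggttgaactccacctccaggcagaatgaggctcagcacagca
Cxcl7, at chr5:90768268-90768567 (plus strand), holds TATAAA at -30 and again at -8.
Cxcl7: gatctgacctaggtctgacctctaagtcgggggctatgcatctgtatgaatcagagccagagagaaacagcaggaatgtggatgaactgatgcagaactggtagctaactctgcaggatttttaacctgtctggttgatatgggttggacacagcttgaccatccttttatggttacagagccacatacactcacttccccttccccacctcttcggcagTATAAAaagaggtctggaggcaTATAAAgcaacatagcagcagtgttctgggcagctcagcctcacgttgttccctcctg
Ccr6, second start site, at chr17:8242276-8242575 (plus strand), holds overlapping NF-kappaB matches at -81 and -80.
Ccr6: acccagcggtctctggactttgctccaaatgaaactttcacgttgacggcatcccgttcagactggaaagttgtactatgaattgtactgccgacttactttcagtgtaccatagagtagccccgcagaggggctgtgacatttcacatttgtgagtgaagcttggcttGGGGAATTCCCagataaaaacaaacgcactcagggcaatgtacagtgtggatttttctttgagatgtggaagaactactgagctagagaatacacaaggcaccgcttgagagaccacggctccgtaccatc
Cxcl10, at chr5:92348840-92349139 (minus strand), holds NF-kappaB matches at -159, -104 and -103.
Cxcl10: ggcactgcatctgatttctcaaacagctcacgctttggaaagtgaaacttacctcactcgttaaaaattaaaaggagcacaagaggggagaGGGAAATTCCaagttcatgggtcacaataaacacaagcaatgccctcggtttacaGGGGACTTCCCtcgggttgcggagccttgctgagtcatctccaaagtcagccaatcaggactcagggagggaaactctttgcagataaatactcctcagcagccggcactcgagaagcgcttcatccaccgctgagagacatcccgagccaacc
Cxcl1, at chr5:90890995-90891294 (plus strand), holds overlapping NF-kappaB matches at -71 and -70.
Cxcl1: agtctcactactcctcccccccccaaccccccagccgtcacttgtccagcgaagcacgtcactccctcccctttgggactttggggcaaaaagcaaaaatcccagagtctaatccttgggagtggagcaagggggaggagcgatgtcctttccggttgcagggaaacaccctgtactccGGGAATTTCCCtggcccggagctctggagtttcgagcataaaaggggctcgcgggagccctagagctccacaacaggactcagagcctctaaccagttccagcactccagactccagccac

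The NF-kappaB consensus was present in 10 of the 38 members with a promoter, and in 8.46% of all 32851 promoters of the table. It was present in 1 of the 6 members called lower in NP liver that have an entry, which is Ccr6. TATAAA was present in 12 of the 38 members and in 13.6% of all promoters, and in 2 of the 6 called lower. Genes with several start sites have several windows, so a share of genes and a share of promoters are not on the same footing. A match is a run of letters in this window and says nothing of binding.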

How the data were processed

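Liver and spleen RNA, pooled per diet and tissue per the labels' protocols, was labelled with Cy3 or Cy5 and hybridised to 4 Agilent whole mouse genome arrays. The deposited scanner files hold spot intensity (mean signal, local background, processed signal) and a log10 ratio (Cy5 divided by Cy3), per the file headers, written by Agilent Feature Extraction 9.5.3.1, per the submitters' processing notes. The deposited value table holds log10 ratios by a route not given in the sources used here. Against the scanner ratios its columns correlated at -0.992, 0.990, -0.989 and 0.998, so that all 4 run as low NP over NP. Its column medians were 0.03, -0.07, -0.01 and -0.04, so it is not centred, and 2.69% to 22.6% of values differed beyond rounding for a reason that is unknown.

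From the mean and background intensities of 45018 spots per array, the background was corrected by normexp with an offset of 50, which draws the ratios of dim probes toward 0. Ratios were normalized by loess in limma 3.58.1 under R 4.3.3, with the 1639 control spots and the 109 to 180 outlier spots given no weight, and each ratio was then given as NP over low NP. Levels are per-channel log2 values after loess and Aquantile. Repeated spots were averaged. Tables and figures used Python 3.11.15, numpy 2.4.6, pandas 2.3.3 and matplotlib 3.10.9. The number of arrays limits the precision. Arrays of a tissue are taken as 1 replicate, so no p-value is given. The 4 arrays are on 1 slide, so no slide effect could be examined.

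Older array names were matched to RefSeq symbols (GRCm38.p6). The members and gene lists were chosen with earlier results of these data known. The text names members called in a tissue, the 5 highest and 5 lowest by mean ratio in each, the 10 with the largest difference toward NP spleen, those measured in no tissue and others as ligand and receptor partners. From the pathway lists it names called genes. A few genes are counted but not reported here by name.

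The alternatives were each array alone, no background correction, median centring, processed signals, the deposited value table, a stricter and no filter on dim probes, the mean of all probes, a call at 2-fold, quantile normalization for tissue differences, and leaving out members higher in the other tissue. Probe sequences were not used here.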

Additional observations from a re-analysis of the deposited data

Results flagged for a closer look

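In 17 of the 38 members measured in both tissues, both liver arrays lay on one side of 0 and both spleen arrays on the other (44.7%, where 32.3% of all genes measured in both were). With median centring, which moved the spleen median of all genes to -0.15, the spleen mean of 11 of these 17 turned its sign, those of Ccl5, Ccl21c, Ccr7, Cxcl13, Cxcl7 and Cxcl4 among them. No liver mean turned, and no spleen mean turned with the processed signals, the deposited table or without background correction. These differences between liver and spleen were not tested, and many of the values are small. The numbers that follow are the liver mean log2 ratio minus the spleen mean log2 ratio, each ratio being NP over low NP. Lower in NP liver and higher in NP spleen, under loess, were 13 members (34.2%, where 13.8% of all genes were). Among those called lower in NP liver the difference was -2.93 for Ccl5, -2.41 for Ccl21c, -2.22 for Ccr7, -2.05 for Cxcl13, -2.02 for Cxcl7 and -1.60 for Cxcl4. Among those not called it was -1.51 for Ccr3, -1.15 for Cxcr4, -0.98 for Ccr2, -0.78 for Cxcr6, -0.59 for Ccr9, -0.57 for Ccl6 and -0.41 for Xcl1. Higher in NP liver and lower in NP spleen were 4 members, none of them called: 0.67 for Cxcl14, 0.67 for Ccl27, 0.54 for Cxcl11 and 0.12 for Ccl17. Leukocyte markers lay lower in NP liver and hepatocyte markers lower in NP spleen, as given with the results, and their part in these differences was not tested.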

How the results depend on the processing

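No paired analysis was possible because the arrays of a tissue were taken as 1 replicate, which the labels do not settle, and no test was run. The number of members called lower in NP liver was 9, and 9 to 21 with 1 array alone. It was 18 without background correction, 19 with the processed signals, 20 with the deposited value table and 0 when the members higher in the other tissue by 2-fold or more were left out, a choice that shares the low-NP pool with the ratio. The same 9 were called in the first 3 of these settings. The number called higher in NP liver was 0, with 0 to 1 on 1 array alone (Ccl25 on array 1), and 1 (Cxcl11) with the processed signals and with the deposited table. The liver median of -0.43 was -0.66 and -0.14 on 1 array alone, -0.79 with the processed signals and with the deposited table, -0.095 with no filter on dim probes and -0.022 without the members higher in the other tissue. In spleen, 0 members were called lower, with 0 to 4 on 1 array alone. The spleen median of -0.0056 was -0.14 with median centring, 0.11 with the processed signals, 0.12 with the deposited table and 0.053 without the members higher in the other tissue. Median centring, processed signals and the deposited table moved the spleen median of all genes, -0.02, to -0.15, 0.10 and 0.0997, and the processed signals and the deposited table moved the liver median of all genes, 0.00, to 0.11 in both cases. Relative to these shifts the members' spleen medians lay 0.01, 0.01 and 0.02 above all genes. The number of members at least 2-fold higher in low-NP liver than in low-NP spleen was 3, with 4 to 5 on 1 array alone, 5 without background correction and 7 with the processed signals. The cause of these changes was not tested. Over the 120 ratios of named members recomputed under the 5 settings of background, centring, processed signals, deposited table and probe mean, 0 of the called ones changed sign, 93 moved by less than the SD between arrays and 27 by more. Quantile normalization left all 4 tissue counts within 1.5 times. Signal over background limits the 13 members not measured in liver and the 10 not measured in spleen.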
